A study of Mus musculus with 18 samples.

Results

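The 10 genes described here encode the hypoxia-inducible factor (HIF) subunits and the proteins that hydroxylate or degrade them. They were chosen by name: Epas1, Hif1a, Hif3a, Arnt, Arnt2, Egln1, Egln2, Egln3, Vhl and Hif1an, each with 1 row among the 27131 rows of the expression table. The samples were colon tissues from C57BL/6 mice that had no treatment, sequenced as polyadenylated RNA, in 9 libraries with the genotype Hif2a +/+ (WT) and 9 with Hif2a LFL (HIF2). The second allele appears as LSL in the design text, and the labels say that these mice overexpress HIF2 in the colon. The promoter or recombinase that drives the allele, the form of HIF-2α it encodes, the sex and age of the mice and whether each library came from its own mouse are unstated in the labels and design text. P-values therefore measure the spread between libraries.

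A HIF factor is a dimer of an oxygen-regulated alpha subunit (HIF-1α from Hif1a, HIF-2α from Epas1, HIF-3α from Hif3a) and a stable partner (ARNT or its relative ARNT2). In oxygenated cells the prolyl hydroxylases PHD2, PHD1 and PHD3, encoded by Egln1, Egln2 and Egln3, mark the alpha subunits for the ubiquitin ligase subunit VHL, which directs their degradation. The asparaginyl hydroxylase FIH, from Hif1an, blocks the binding of HIF-1α and HIF-2α to coactivators. In the intestinal epithelium HIF-2α is known as a regulator of iron absorption genes. RNA levels do not report on hydroxylation or on the amount of HIF protein.

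Values were FPKM, fragment levels scaled to transcript length and to library size, so levels of different genes can be set side by side. Differences are HIF2 minus WT on the log2(FPKM + 1) scale, which understates the change of low genes, and adjusted p-values are from limma with Benjamini-Hochberg adjustment over all 13976 genes whose mean FPKM reached 1. Of the 10 members, 9 passed this filter, and Arnt2 did not. The FPKM sum of a library was between 686539 and 937505, and its read depth is unstated. Colon epithelial markers, 10 of 11 of which had a row, were abundant, with a summed level of 11531 to 17843 FPKM in WT and 9140 to 14567 FPKM in HIF2. Of these 10, 5 fell in HIF2 (Slc26a3 -1.97, Krt20 -0.67, Cdx2 -0.60, Vil1 -0.40 and Cdh1 -0.38 on the log2 scale, limma adjusted p from 0.00714 to 0.0207) and 0 rose, and the part of this in the members' differences was not tested. Libraries also differed in other cell types. Smooth muscle markers (11 genes) summed to 1466 to 3580 FPKM in HIF2 replicates 0 to 5, to 62.7 to 182 FPKM in HIF2 replicates 6 to 8 and to 23.1 to 1170 FPKM in WT, where replicate 3 was highest. Neutrophil markers (5 of 6 with a row, 1 at 0 in all libraries) summed to 760 FPKM in HIF2 replicate 0 and to at most 8.84 FPKM in any other library. S100a8 (421 FPKM) and S100a9 (333 FPKM) made up nearly all of the sum in replicate 0, and Csf3r, Cxcr2 and Mpo were below the filter. In bulk tissue, fewer cells of a type and less RNA per cell cannot be told apart. The Y-linked gene Ddx3y reached 1 FPKM in WT replicates 0 to 4 and HIF2 replicates 0, 1, 2, 4 and 5. In HIF2 replicates 2 and 4 Egln3 and the iron transporter gene Slc11a2 lay inside the WT range, unlike in the other 7 HIF2 libraries. Npas2, described below, was 4.70 and 4.81 FPKM in replicates 2 and 4, above the WT maximum of 4.21 FPKM. Whether these libraries carry the labelled genotype was not tested. They were kept as labelled, because leaving both out would select libraries by the outcome. Every HIF2 mean and difference below includes them unless a subset is named, and without either one alone Egln3, Hif3a and Vhl still rose.

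Among the 9 tested members 3 rose in HIF2, Egln3, Hif3a and Vhl, and 0 fell. Over all genes, 11.0% were called higher and 11.1% lower by the same rule, 22.1% in all. The median difference was 0.21 over the 9 members and -0.02 over all genes tested. Among members whose difference did not pass, Egln1, Egln2, Epas1 and Hif1a came closest, with unadjusted p between 0.0271 and 0.103, while Arnt and Hif1an had unadjusted p of 0.589 and 0.344.

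**Figure D1:**
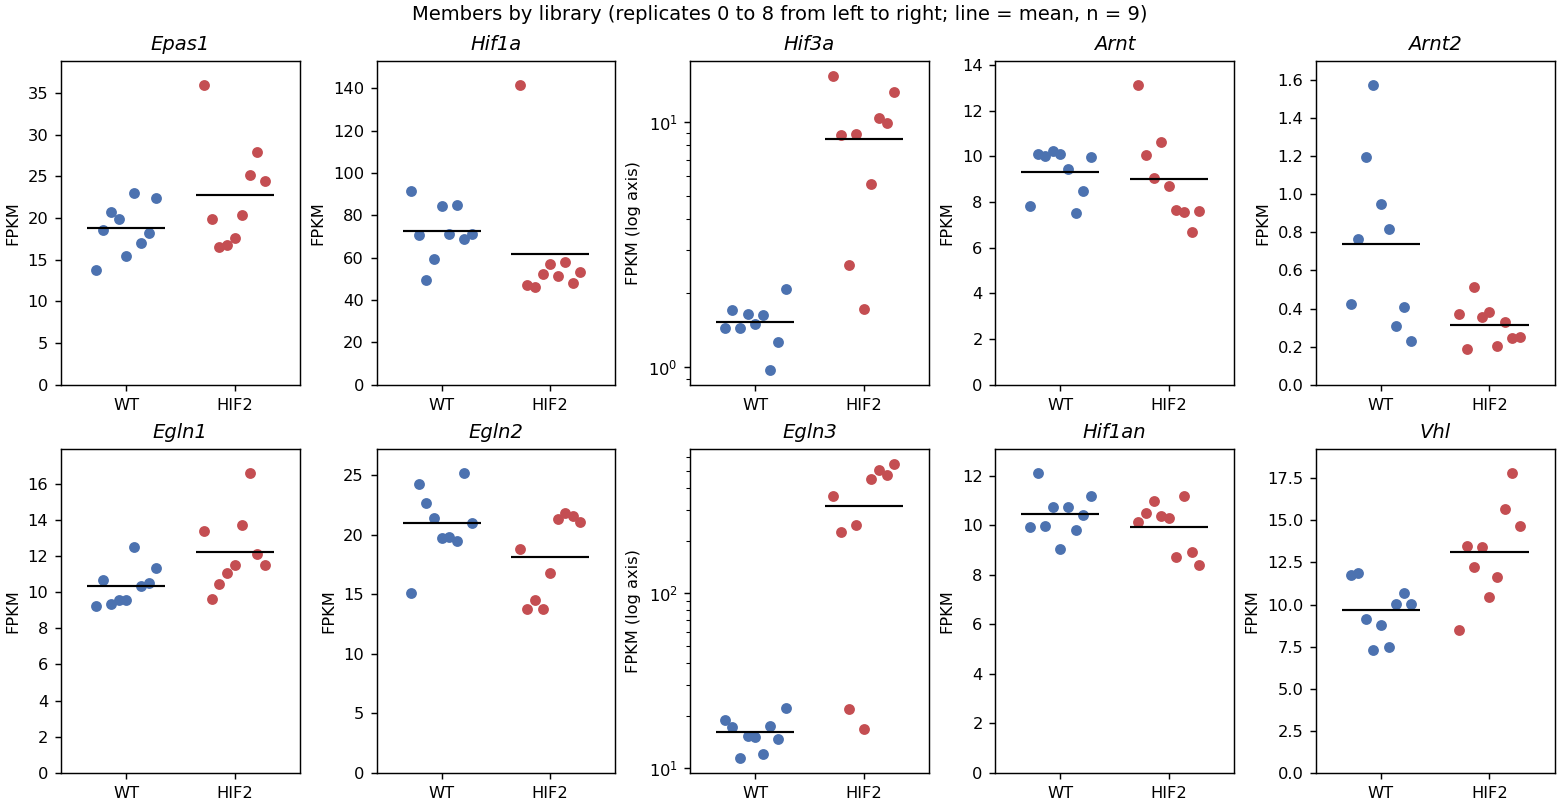
FPKM of each of the 10 members in each library, with replicates 0 to 8 from left to right within a group and the mean as a line (n = 9 per group); Egln3 and Hif3a are on log axes. Egln3 in HIF2 lies between 225 and 549 FPKM in 7 libraries and at 16.7 and 21.8 FPKM in replicates 4 and 2.

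**Figure D2:**
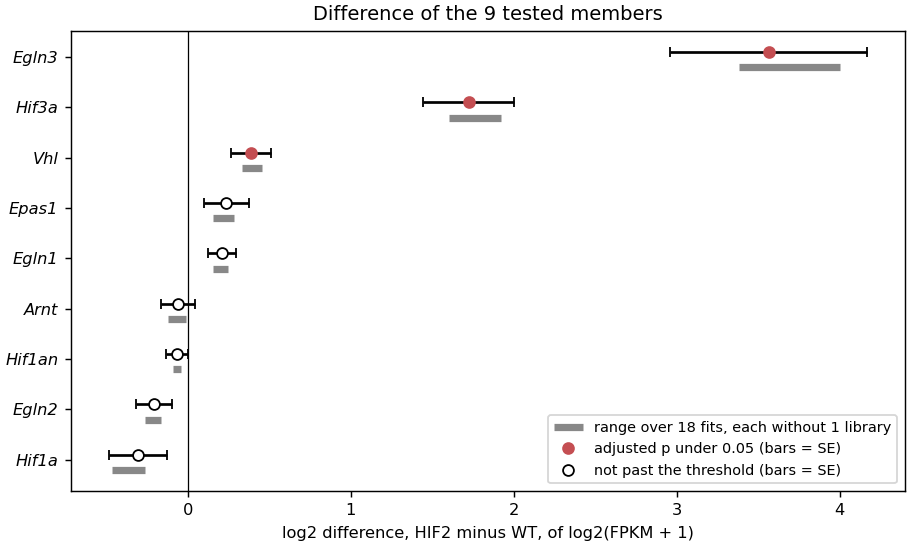
HIF2 minus WT difference of log2(FPKM + 1) for the 9 tested members (points, with SE from limma) and the range of that difference when each of the 18 libraries is left out (grey bars). Egln3, Hif3a and Vhl passed the threshold, and the differences of the other 6 lie between -0.30 and 0.24.

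Epas1 (chromosome 17, 86753700 to 86833410 in GRCm38) is the gene of HIF-2α, which the labels say is overexpressed in HIF2 mice. It was 13.8 FPKM in the lowest, 18.5 in the median and 23.0 in the highest WT library, and 16.6, 20.4 and 35.9 FPKM in the libraries labelled HIF2. The groups overlapped, with 5 HIF2 libraries inside the WT range and 4 (replicates 0, 6, 7 and 8) above it. The difference was 0.24 (SE 0.14), within the scatter among libraries (2-sided exact permutation p = 0.116; limma adjusted p = 0.246). It was 0.47 (SE 0.14, limma adjusted p = 0.0415) when HIF2 replicates 6 to 8 were set against 8 WT libraries without replicate 3, a subset chosen with earlier results known. It was smaller without HIF2 replicate 0 (0.15, limma adjusted p = 0.397), in HIF2 replicates 0 to 5 (0.13, limma adjusted p = 0.594) and with array weights (0.08, limma adjusted p = 0.651). No source says whether the row counts RNA from the Hif2a LFL allele. The Epas1 level therefore could not check the labels, and groups are those of the labels throughout. Endothelial markers, whose cells are a known site of Epas1 expression, summed to between 5.79 and 27.5 FPKM in WT, to between 22.3 and 27.1 FPKM in HIF2 replicates 6 to 8 and to between 38.7 and 131 FPKM in HIF2 replicates 0 to 5, and none of the 12 was at 0 in all libraries of a group. Their part in the Epas1 level was not tested.

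Hif1a (chromosome 12, 73901375 to 73947530) was the most abundant HIF subunit. It was 49.7 FPKM in the lowest, 71.4 in the median and 91.6 in the highest WT library, against 46.0, 52.3 and 142 FPKM in HIF2. Of the HIF2 libraries 8 lay below the WT median and the remaining one, replicate 0, lay above every WT library. The difference was -0.30 (SE 0.18, limma adjusted p = 0.248; exact permutation p = 0.121). Without HIF2 replicate 0 it was -0.47 (SE 0.10, limma adjusted p = 0.00359). That library was also the highest HIF2 library for Epas1, Hif3a and Arnt. It carried the neutrophil markers S100a8 at 421 FPKM and S100a9 at 333 FPKM. Its sums of endothelial (131 FPKM), enteric neuron and glia (36.7 FPKM) and blood markers (85.8 FPKM, 3 of 5 with a row) were the highest in HIF2. Its colon epithelial sum was the lowest in HIF2 (9140 FPKM). Smooth muscle, fibroblast and macrophage sums of this library lay within the range of the other HIF2 libraries. The part of these cells in the Hif1a level was not tested. The antisense gene Gm15283 covers the whole Hif1a locus and had a mean of 15.9 FPKM. The kit does not mark strand, so reads from bases that both transcripts share cannot be assigned by strand. The overlap is one of whole gene spans, and whether their exons overlap was not examined.

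The balance of the alpha subunits can be given per library. Hif1a exceeded Epas1 in every library, by a ratio of 2.39 to 6.65 in WT (median 3.80) and of 1.72 to 3.94 in HIF2 (median 2.52). The lowest ratio was in HIF2 replicate 7 and the highest in WT replicate 0, and the groups overlapped. Of the summed FPKM of the 3 alpha subunits, Epas1 made up 20.7% ± 5.11 (SD, n = 9) in WT libraries and 25.3% ± 3.92 (SD, n = 9) in HIF2 libraries. Hif3a made up 1.67% in WT and 9.08% in HIF2, with ranges of 0.950% to 2.18% and 2.28% to 14.5%. These shares are given as a description, without a test.

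**Figure D3:**
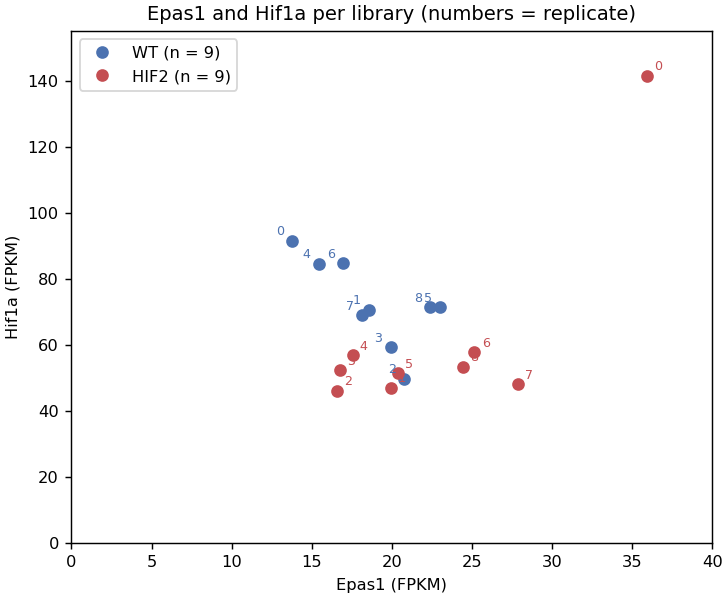
Hif1a against Epas1 in FPKM for each library, with the replicate number beside each point (n = 9 per group). HIF2 replicate 0 stands apart at 35.9 FPKM of Epas1 and 142 FPKM of Hif1a, and the other HIF2 libraries lie at or below 57.8 FPKM of Hif1a.

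Hif3a (chromosome 7, 17031507 to 17062427) encodes an alpha subunit with several splice forms, some of which restrain the other factors. It was the lowest alpha subunit in WT, at 0.975 FPKM in the lowest, 1.499 in the median and 2.09 in the highest library, and was at 1.73, 8.94 and 15.4 FPKM in HIF2. In HIF2, 8 libraries lay above every WT library, and replicate 4 lay inside the WT range. Replicate 2, at 2.62 FPKM, was just above it. Hif3a rose by 1.72 (SE 0.28, limma adjusted p = 0.000379; exact permutation p = 8.23e-05). The gene-level value does not separate the splice forms.

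Arnt and Arnt2 did not rise. Arnt (chromosome 3, 95434388 to 95497240), the usual partner, was 7.50 FPKM in the lowest, 9.97 in the median and 10.2 in the highest WT library and 6.67, 8.72 and 13.1 FPKM in HIF2. It differed by -0.06 (SE 0.11, limma adjusted p = 0.755), and the groups overlapped. Arnt2 (chromosome 7, 84246278 to 84410176), a partner best known from neurons, was low, at 0.228, 0.764 and 1.57 FPKM in WT and 0.187, 0.332 and 0.514 FPKM in HIF2. All 9 HIF2 libraries lay below the WT median and 7 lay inside the WT range. Arnt2 was outside the genes tested. With no filter on low values, the difference was -0.37 (limma adjusted p = 0.0458), and its exact permutation p was 0.00942.

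Of the prolyl hydroxylases, Egln3 rose, while Egln1 and Egln2 differed little. Egln3 (chromosome 12, 54178981 to 54203860), a HIF-inducible family member, was 11.4 FPKM in the lowest, 15.3 in the median and 22.2 in the highest WT library, and 16.7, 359 and 549 FPKM in HIF2. The HIF2 libraries fell into separate sets, 7 between 225 and 549 FPKM and replicates 4 and 2 at 16.7 and 21.8 FPKM, inside the WT range. The mean went from 16.1 ± 3.35 to 316 ± 201 FPKM (SD, n = 9 each), a rise of 3.56 (SE 0.60, limma adjusted p = 0.000485; exact permutation p = 0.00037).

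Egln1 (chromosome 8, 124908587 to 124949324) encodes PHD2, the main hydroxylase for HIF-1α. It was 9.21 FPKM in the lowest, 10.4 in the median and 12.5 in the highest WT library and 9.62, 11.5 and 16.6 FPKM in HIF2. Of the HIF2 libraries 8 lay above the WT median, but only 3 lay above the WT range. The difference was 0.21 (SE 0.09, limma adjusted p = 0.0951; exact permutation p = 0.0217). It passed when libraries were scaled to a common upper quartile (0.25, limma adjusted p = 0.0325) and, barely, with quantile normalization and without HIF2 replicate 1 (0.23 and 0.25, limma adjusted p = 0.0499 in each).

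Egln2 (chromosome 7, 27158658 to 27166802), encoding PHD1, was 15.1, 21.0 and 25.2 FPKM in the lowest, median and highest WT library and 13.7, 18.8 and 21.8 FPKM in HIF2. It differed by -0.21 (SE 0.11, limma adjusted p = 0.21; exact permutation p = 0.0888). Within HIF2 it was 13.7 to 21.3 FPKM in replicates 0 to 5, which carried most smooth muscle RNA, and 21.1 to 21.8 FPKM in replicates 6 to 8. With the smooth muscle marker mean as a covariate the difference was -0.001 (limma adjusted p = 0.997). On the log2(FPKM + 1) scale that mean was 5.82 to 6.97 in HIF2 replicates 0 to 5 and 2.17 to 3.34 in replicates 6 to 8. In WT it was 1.32 to 5.62, highest in replicate 3. In every fit with this covariate, the parts of muscle and group therefore cannot be fully told apart. Within WT, Egln2 and that mean had r of -0.15 (exact permutation p = 0.676). Without the 2 WT libraries farthest from the median of that mean, r was -0.59, so the value rested on them.

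Summed over the 3 genes, prolyl hydroxylase transcripts averaged 47.3 ± 4.11 FPKM (SD, n = 9) in WT libraries and 346 ± 205 FPKM (SD, n = 9) in HIF2 libraries. Egln3 made up 26.3% to 43.7% of that sum in WT. In HIF2 it made up 37.1% and 46.6% in replicates 4 and 2 and 90.6% to 94.4% in the other 7 libraries. Egln2 was the largest part of the sum in 7 WT libraries and Egln3 in the other 2, replicates 0 and 8. These shares are a description and were not tested.

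**Figure D4:**
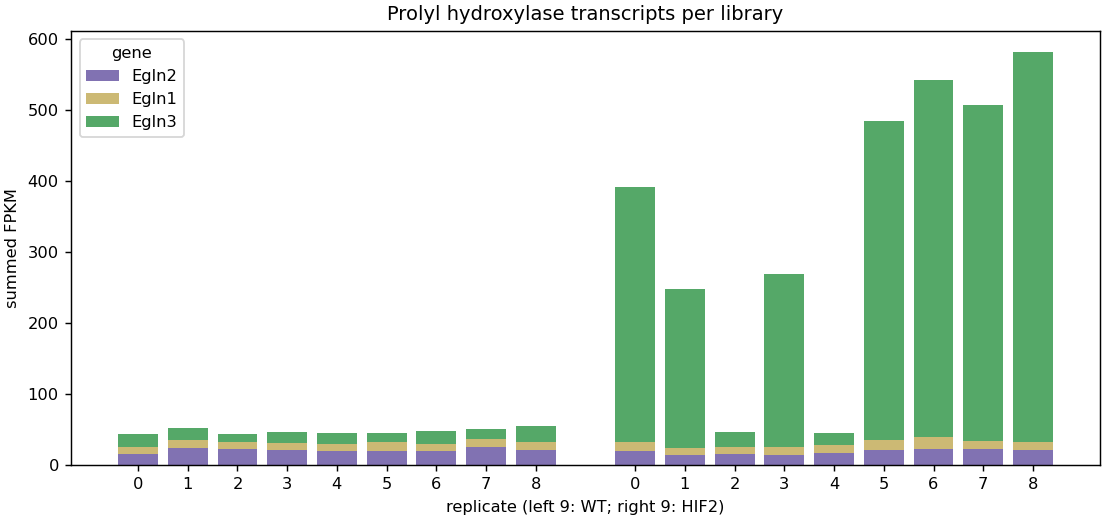
Summed FPKM of Egln1, Egln2 and Egln3 in each library, WT on the left and HIF2 on the right, with each gene's part stacked. The sum is 43.2 to 54.5 FPKM in WT, 45.0 and 46.7 FPKM in HIF2 replicates 4 and 2, and 248 to 581 FPKM in the other HIF2 libraries.

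Hif1an (chromosome 19, 44562850 to 44576274), encoding the asparaginyl hydroxylase, varied little. It was 9.02 FPKM in the lowest, 10.4 in the median and 12.1 in the highest WT library and 8.39, 10.3 and 11.2 FPKM in HIF2. The groups overlapped, and the difference was -0.07 (SE 0.07, limma adjusted p = 0.542; exact permutation p = 0.28).

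Vhl (chromosome 6, 113623959 to 113631633), the substrate-binding subunit of the ligase that degrades hydroxylated alpha subunits, rose modestly. It was 7.30, 10.05 and 11.9 FPKM in the lowest, median and highest WT library and 8.51, 13.4 and 17.8 FPKM in HIF2. In HIF2, 6 libraries lay above the WT range and 3 inside it. The difference was 0.39 (SE 0.12, limma adjusted p = 0.0272; exact permutation p = 0.00761). The call was lost in HIF2 replicates 0 to 5 against all WT libraries (0.24, limma adjusted p = 0.159), by ranks (exact rank test, adjusted p = 0.0515), and without WT replicate 3, WT replicate 5 or HIF2 replicate 6 (0.35, 0.35 and 0.36, limma adjusted p = 0.0505, 0.0558 and 0.0507).

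Set in order of mean level, the members in WT ran from Hif1a (72.5 FPKM) through Egln2 (20.9), Epas1 (18.8), Egln3 (16.1), Hif1an (10.4), Egln1 (10.3), Vhl (9.69), Arnt (9.30) and Hif3a (1.53) to Arnt2 (0.741 FPKM). Only Hif1a over Egln2 and Arnt over Hif3a were steps in which the ranges of neighbours did not overlap, and Hif1an, Egln1, Vhl and Arnt could not be ordered beyond their spread. In HIF2, Egln3 came first on average (316 FPKM), above Hif1a (61.6 FPKM) in 7 of 9 libraries. Hif3a stood at 8.502 FPKM and exceeded Arnt (9.00 FPKM) in 4 of the 9.

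Egln3 and Hif3a were low in the same HIF2 libraries, replicates 2 and 4, where Slc11a2 also lay inside the WT range. In these libraries Epas1 was 16.6 and 17.6 FPKM, inside the WT range. HIF2 replicate 3 had Epas1 at 16.8 FPKM and Egln3 at 244 FPKM. Smooth muscle markers summed to 3085 and 2763 FPKM in replicates 2 and 4, beside 3065 and 3454 FPKM in replicates 3 and 1, where Egln3 was high. In HIF2 replicates 6 to 8, with smooth muscle markers at 62.7 to 182 FPKM, Egln3 was 473 to 549 FPKM and Hif3a 9.88 to 13.2 FPKM. With the smooth muscle marker mean as a covariate, Egln3 rose by 4.50 and Hif3a by 2.11 (limma adjusted p = 0.000817 and 0.000907). Other stromal markers differed too. Fibroblast markers, all 8 of which rose, summed to 30.7 to 220 FPKM in WT and 111 to 876 FPKM in HIF2. The 6 macrophage markers with a row all rose, with sums of 6.89 to 44.4 and 28.8 to 107 FPKM. No marker of either list was at 0 in all libraries of a group. The part of these cells in the Egln3 and Hif3a levels was not tested.

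**Figure D5:**
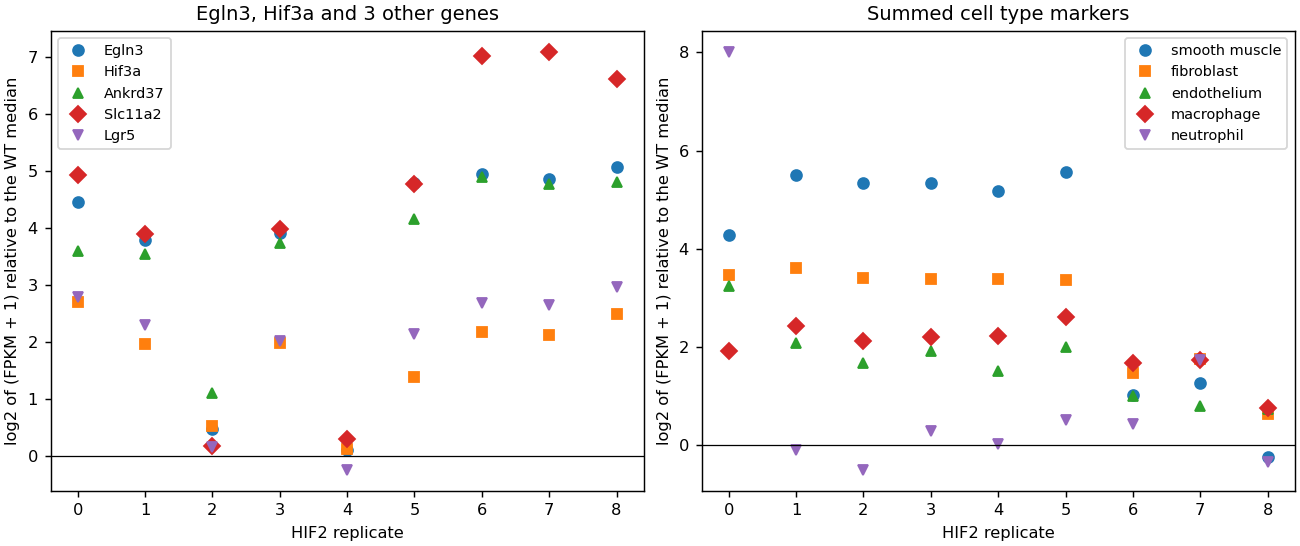
Left, level of Egln3, Hif3a, Ankrd37, Slc11a2 and Lgr5 in each HIF2 library, as log2 of (FPKM + 1) relative to the WT median; right, the same for the summed FPKM of 5 cell type marker lists. Replicates 2 and 4 are low on the left and not on the right for smooth muscle and fibroblast markers, while replicates 6 to 8 are high on the left and lower for smooth muscle than replicates 0 to 5.

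Where Ddx3y was detected, 5 libraries against 5, Egln3 differed by 2.72 and Hif3a by 1.32 (limma adjusted p = 0.0867 and 0.0789), and that set holds HIF2 replicates 2 and 4. Where it was not detected, 4 against 4, they differed by 4.62 and 2.23 (limma adjusted p = 0.000367 and 0.000707). The difference between these settings did not pass a test of the interaction (limma adjusted p = 0.614 and 0.617). Vhl differed by 0.19 and 0.64 (limma adjusted p = 0.488 and 0.0307), with an interaction adjusted p of 0.561 in limma. The HIF2 libraries without Ddx3y were replicates 3, 6, 7 and 8. Of these, replicates 6 to 8 were also the HIF2 libraries with the least smooth muscle RNA. The parts of Ddx3y detection and of this other difference between libraries therefore cannot be fully told apart.

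Promoter sequence is shown for the members that moved together, Egln3 and Hif3a, and for Egln2 and Vhl, which held the most matches and none. HIF dimers bind a core written ACGTG or GCGTG, which was searched on both strands in the 250 bases before each RefSeq transcript start (GRCm38.p6). Capitals mark matches, and where CACGTG occurs the 2 strands' matches overlap. The Egln3 window lies at chr12:54203875-54204124, the Hif3a window at chr7:17062428-17062677 and the Egln2 window at chr7:27166803-27167052, all on the minus strand, and the Vhl window at chr6:113623744-113623993 on the plus strand.
Egln3: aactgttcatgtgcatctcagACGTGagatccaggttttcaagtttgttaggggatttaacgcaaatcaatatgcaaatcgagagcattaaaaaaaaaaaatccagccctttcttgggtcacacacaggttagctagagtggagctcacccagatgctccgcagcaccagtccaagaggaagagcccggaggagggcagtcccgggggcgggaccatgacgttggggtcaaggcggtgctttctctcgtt
Hif3a: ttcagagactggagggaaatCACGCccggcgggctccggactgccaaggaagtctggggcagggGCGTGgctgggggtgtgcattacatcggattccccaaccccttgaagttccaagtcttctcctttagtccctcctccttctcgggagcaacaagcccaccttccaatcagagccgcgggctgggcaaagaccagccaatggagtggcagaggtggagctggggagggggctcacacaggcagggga
Egln2: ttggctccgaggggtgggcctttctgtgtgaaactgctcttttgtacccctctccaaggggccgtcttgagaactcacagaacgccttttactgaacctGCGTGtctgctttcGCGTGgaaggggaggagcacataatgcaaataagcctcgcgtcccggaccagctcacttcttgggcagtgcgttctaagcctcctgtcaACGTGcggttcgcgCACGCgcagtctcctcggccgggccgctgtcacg
Vhl: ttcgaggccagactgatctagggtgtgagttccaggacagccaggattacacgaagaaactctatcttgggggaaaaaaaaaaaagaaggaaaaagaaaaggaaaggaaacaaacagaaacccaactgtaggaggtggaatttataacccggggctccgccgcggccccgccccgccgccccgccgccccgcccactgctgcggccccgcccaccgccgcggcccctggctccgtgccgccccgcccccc

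Egln3 held 1 match, ACGTG starting 229 bases before the start, and Hif3a held 2, starting at 230 and 186 bases. Egln2, which did not rise, held 4 matches in this window and 1 in that of another transcript start, whereas Vhl held 0. Of 32851 RefSeq windows of this length, 38.6% held at least 1 match and 6.58% held 3 or more. Of the 10 windows found for 9 members, 7 held at least 1. Among the other members with a window, Hif1a held 3, Egln1 2, Arnt 1, and Arnt2 and Hif1an 0 each. Whether the number of matches goes with the differences in RNA was not tested. A match is a description of letters, not a binding site, and sites farther from the start were not searched.

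By likeness of pattern over the 18 libraries (Pearson r of log2(FPKM + 1), which includes the difference between groups), Egln3 was closest to Abtb2 (0.99), Ankrd37 (0.99) and the metalloreductase gene Steap4 (0.98). Ankrd37 was 10.3 FPKM in the lowest, 14.4 in the median and 18.98 in the highest WT library and ran from 18.6 to 459 FPKM in HIF2, with replicates 4 and 2 the lowest. Within WT alone the 3 values of r were 0.37, 0.24 and 0.26, so the likeness was one of the HIF2 libraries. Egln3 in HIF2 fell into separate sets of libraries, and a gene with the same split has a high r with it. Hif3a was closest to the amino acid transporter gene Slc38a1 (0.98), the intestinal stem cell marker Lgr5 (0.97) and Wfdc13 (0.96). Within WT alone these values of r were 0.59, -0.06 and -0.30, and Hif3a also formed separate clusters in HIF2. Wfdc13 had a mean of 0.0375 FPKM in WT and 10.8 FPKM in HIF2, so it passed the filter through the HIF2 libraries. Lgr5 was 1.499 to 3.36 FPKM in WT, 2.03 and 3.002 FPKM in HIF2 replicates 4 and 2 and 13.5 to 27.0 FPKM in the other HIF2 libraries. For Epas1, the genes Ndst1 (0.85) and Arid3a (0.83) were closest, with r of 0.40 and 0.20 within WT alone. Hif1a was closest to Nipal1 (0.86), Steap2 (0.84) and the actin gene Actb (0.84), and Vhl to Lrmp (0.91), Prps1l3 (0.87) and Gde1 (0.87). In WT alone r was 0.84, 0.74 and 0.61 for the Hif1a genes and 0.77, 0.71 and 0.64 for the Vhl genes.

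Within a group, Epas1 and the smooth muscle marker mean were set against the members, 38 relations in all. In 15 of these the libraries formed separate clusters and no correlation was computed, which includes Epas1 with Egln3 and with Hif3a in HIF2. None of the other 23 passed adjustment by either measure, and 4 had an unadjusted exact permutation p under 0.05. Among these, Epas1 and Hif1a had r of opposite sign in the groups, a difference that was not tested. In WT, r was -0.68 (exact permutation p = 0.0444, adjusted p = 0.359) and rho -0.55 (exact permutation p = 0.133, adjusted p = 0.424), with r at -0.68 without the 2 libraries farthest in Epas1. In HIF2, r was 0.71 (exact permutation p = 0.0405, adjusted p = 0.359) and rho 0.53 (exact permutation p = 0.148, adjusted p = 0.424). Without the 2 farthest libraries the HIF2 r was 0.45, so that relation rested on them.

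Other genes of the pathway, from lists chosen with earlier results of these data known, were measured in the same fit. Beside the counts of called genes in these lists stand the shares over all genes, 11.0% higher and 11.1% lower. Of 10 tested genes of the VHL ligase and of HIF turnover, 0 rose and 1 fell, near those shares, with a median of 0.03. The one that fell was Os9, a lectin reported to bind HIF-1α and prolyl hydroxylases, by 0.33 (SE 0.11, limma adjusted p = 0.0446). Its call was lost without any 1 of HIF2 replicates 0 to 5 (-0.26 to -0.34, limma adjusted p up to 0.083), without any 1 WT library other than replicate 3 (-0.31 to -0.35, limma adjusted p up to 0.0813), in the exact rank test (adjusted p = 0.131), with no filter (-0.33, limma adjusted p = 0.051) and once smooth muscle was a covariate (-0.05, limma adjusted p = 0.829). In HIF2 replicates 6 to 8 the difference turned to 0.0094 (limma adjusted p = 0.951). Elongin C, listed as Tceb1, differed by 0.29 (limma adjusted p = 0.0843).

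Of 6 coactivator and CITED genes, 1 rose and 1 fell, with a median of -0.16. Cited1, a transcriptional coregulator, was listed at 0 in 8 WT libraries and at 0.247 FPKM in the other, and was 0 to 15.9 FPKM in HIF2, where replicate 4 was at 0 and replicate 2 at 0.353 FPKM. It rose by 2.01 (SE 0.41, limma adjusted p = 0.00199), and it passed the filter through the HIF2 libraries. The coactivator gene Ncoa1 fell by 0.28 (SE 0.08, limma adjusted p = 0.0158), which did not pass once smooth muscle was a covariate, nor in HIF2 replicates 6 to 8 (-0.24 and -0.15, limma adjusted p = 0.135 and 0.393). Cited2, a HIF-inducible competitor for the same coactivators, differed by -0.09 (limma adjusted p = 0.611).

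Of 11 other bHLH-PAS genes, relatives of the HIF subunits, 4 were tested and 2 rose, with a median of 0.34. Npas2, a partner of the clock factor BMAL1, rose by 1.23 (SE 0.17, limma adjusted p = 0.000122), from at most 4.21 FPKM in WT to 4.70 and 4.81 FPKM in HIF2 replicates 2 and 4 and 9.41 to 14.1 FPKM in the other HIF2 libraries, so the groups did not overlap. Ahr, the aryl hydrocarbon receptor and another ARNT partner, rose by 0.32 (SE 0.10, limma adjusted p = 0.0277). That call was lost without WT replicate 1, WT replicate 5 or HIF2 replicate 1 (0.30, 0.29 and 0.29, limma adjusted p = 0.0547, 0.056 and 0.0562) with TPM scaling (0.30, limma adjusted p = 0.0981), with the replicate block (0.32, limma adjusted p = 0.0599), once smooth muscle was a covariate (0.20, limma adjusted p = 0.32) and in HIF2 replicates 6 to 8 (0.095, limma adjusted p = 0.604).

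Of 31 tested HIF target genes, 17 rose and 1 fell, with a median of 0.69 against -0.02 over all genes tested. With HIF2 replicates 0 to 5 alone, 15 rose and 2 fell, and with HIF2 replicates 6 to 8 alone (8 WT libraries) 21 rose and 1 fell. Ankrd37 rose by 3.47 (SE 0.51, limma adjusted p = 0.000171). P4ha1, a collagen prolyl hydroxylase subunit of the same oxygenase superfamily as the Egln proteins, rose by 1.13 (SE 0.18, limma adjusted p = 0.000285). It was at most 10.7 FPKM in WT and 15.7 to 29.1 FPKM in HIF2, apart from replicate 4 at 8.81 FPKM. P4ha1 was thus above the WT range in HIF2 replicate 2, where Egln3 was inside it. Slc11a2, the iron transporter gene DMT1, was 16.5 and 18.2 FPKM in HIF2 replicates 2 and 4, within the WT range of 12.8 to 19.05 FPKM, and 229 to 2101 FPKM in the other HIF2 libraries. Car12, a carbonic anhydrase gene, fell by 0.92 (SE 0.17, limma adjusted p = 0.000917).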

How the data were processed

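Gene expression was measured in colon RNA from 9 WT and 9 HIF2 libraries. Per the labels' protocols the kit was TruSeq RNA v2. The authors deposited FPKM values, 1 column per library, and all 18 columns were used. The mm10 build is listed by the submitters' processing notes, as are Cuffdiff 2.1.1, Cufflinks, TopHat, TopHat2 2.0.9, Bowtie2 2.1.0.0 and FastQC, without roles. No source used here gives strand settings or an annotation release.

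From these values, log2(FPKM + 1) was compared with limma 3.58.1 in R 4.3.3 (trended prior, 2-sided, Benjamini-Hochberg adjustment, threshold 0.05), over the 13976 genes whose mean FPKM reached 1. The procedure was tested on simulated data. Single genes were also tested by an exact permutation test over all 48620 assignments to the groups, whose smallest possible p is 4.11e-05. Relations used exact permutations of pairings. Positions are 1-based, from GENCODE M21 (GRCm38, the assembly of mm10). Promoter windows are from RefSeq (GRCm38.p6). Figures were drawn with matplotlib 3.10.9.

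The members and lists were chosen with earlier results of these data known. Named genes are the 10 members, the 3 most alike tested genes (leaving out members, predicted genes and small RNAs) for Epas1, Hif1a and each called member, and up to 2 called genes per direction by smallest p from each pathway list. For Epas1, 1 gene that this rule names is not reported here. Tceb1, Cited2, Slc11a2, Ddx3y, Gm15283 and the cell type markers were named outside this rule, after their values were seen. Libraries share replicate numbers 0 to 8, but these do not pair them, as set out with the alternatives. Alternatives covered the pseudocount, the filter, 3 scalings, a replicate block, a rank test, array weights, covariates and subsets of libraries. The fits split by Ddx3y were added after the data were seen.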

Additional observations from a re-analysis of the deposited data

Results flagged for a closer look

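In the 20 sets of 9 libraries (10 members in each group), 2 had a library standing apart, by its gap to the nearest library relative to the range on the log2(FPKM + 1) scale. Chance flags about 1 in 20 sets. Hif1a was 142 FPKM in HIF2 replicate 0, against at most 57.8 FPKM in the other HIF2 libraries. Egln2 was 15.1 FPKM in WT replicate 0, below the other WT libraries, the next of which was at 19.5 FPKM.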

How the results depend on the processing

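Egln3 and Hif3a kept their direction and call in every alternative chosen at the outset. Without 1 library they rose by 3.38 to 3.999 and 1.6 to 1.92, and their calls were lost only with Ddx3y detected (2.72 and 1.32), a split added after seeing the data, where Vhl also lost its call (0.19). Vhl was also lost in the exact rank test (0.39) and in HIF2 replicates 0 to 5 (0.24), and ranged from 0.33 to 0.46 without 1 library. Without 1 library Hif1a ranged from -0.47 to -0.26, passing without HIF2 replicate 0, and Egln1 from 0.16 to 0.25, passing without HIF2 replicate 1. Hif1a passed with array weights (-0.42) and without Ddx3y (-0.48), Egln1 with upper quartile scaling (0.25) and quantile normalization (0.23), Egln2 with array weights (-0.34) and in HIF2 replicates 0 to 5 (-0.33), Epas1 in HIF2 replicates 6 to 8 (0.47) and Arnt2 with no filter (-0.37). Egln2 turned to 0.053 in HIF2 replicates 6 to 8 and Arnt to 0.068 in HIF2 replicates 0 to 5, neither called. The cause was not tested. Genes higher and lower numbered 1531 and 1557. Higher genes numbered 640 with a filter at a mean FPKM of 5, 2407 with none, 933 with the smooth muscle covariate and 387 without Ddx3y. Lower genes numbered 1006 with that covariate and 557 and 585 with and without Ddx3y. With TPM scaling 1292 were higher and 1649 lower, and with upper quartile scaling 1781 and 1245. Same-numbered libraries did not deviate together (correlations of -0.03 to 0.11 over 9 pairs), so the numbers do not pair them. With the replicate block Egln3, Hif3a and Vhl still passed (limma adjusted p = 0.00227, 0.00266 and 0.0417), and 1355 genes were higher and 1345 lower. Ncoa1 and Ahr did not pass with it (limma adjusted p = 0.0501 and 0.0599). Absolute depth is unknown, so no counting error could be given for low members such as Arnt2.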
